A study of Cavia porcellus with 18 samples.

Results

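The CG sites described here were methylated at 40 to 60% in the hippocampus of the guinea pig by reduced representation bisulfite sequencing (RRBS) and were covered by at least 30 RRBS reads. The method samples DNA fragments cut by a restriction enzyme and takes no account of bound proteins. Of 167387 distinct sites, 22924 had an RRBS level of 40 to 60%, and 4722 of these (20.6%) also reached 30 reads and are called deep intermediate sites below. They made up 2.82% of all sites and lay in 3628 H3K4me1 peaks on 220 scaffolds. H3K4me1 is histone H3 with a single methyl group on lysine 4, found at enhancers and beside promoters.

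The hippocampi were those of 3 male wild type animals (Cavia porcellus) aged 12 weeks, with no treatment and no second genotype. Bisulfite sequencing of H3K4me1-bound DNA (ChIP-bisulfite), H3K4me1 ChIP-seq and ChIP-seq of RNA polymerase II phosphorylated on serine 5 (Pol II PS5, a form found at initiation) had 3 libraries each. Bisulfite-treated RRBS had 6 libraries, read at 50 and at 100 bases, and 3 further RRBS libraries without bisulfite served as digestion controls and were not used here. Every deposited value pools the 3 animals, so no spread between animals could be computed.

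Methylated CG is the common state of mammalian DNA, while active promoters and many active enhancers carry little of it. A level between these states in bulk tissue is known from imprinted control regions, where the alleles differ, and from enhancers that are used by some cell types of a tissue. The hippocampus holds excitatory and inhibitory neurons as well as astrocytes, oligodendrocytes and microglia. Alleles, cell types and animals were not separated in these files, and their part in the levels was not tested.

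The RRBS level and its reads chose the sites and are given as a description. The deep intermediate sites had a mean RRBS level of 50.5% (SD 6.11 over 4722 sites) and from 30 to 6764 reads, with a median of 41. A site with 15 of 30 reads methylated has an exact 95% binomial interval of 31.3 to 68.7%, and one with 50 of 100 reads an interval of 39.8 to 60.2%. The interval lay inside 20 to 80% for all 4722 sites, inside 30 to 70% for 2130 sites (45.1%) and inside 40 to 60% for 34 sites. These intervals cover the counting of reads only, and copies made by PCR were not told apart. The intervals of shares given below cover the counting of sites, and those of fitted differences the spread over scaffolds. Sites just inside and just outside the limits are described by their ChIP-bisulfite level. Those with 30 to 31 reads averaged 41.5% in ChIP-bisulfite and those with 28 to 29 reads 38.9%. Sites at 40 to 41% in RRBS averaged 31.5% and those at 38 to 39% averaged 31.01%, whereas sites at 59 to 60% averaged 45.3% and those at 61 to 62% averaged 53.2%.

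The first question was which level these sites had on DNA bound by H3K4me1. Most deep intermediate sites were near one end of the scale in ChIP-bisulfite, though a smaller share than over all sites. Low levels, at or under 20%, were listed for 2280 sites (48.3%, 95% interval 46.9 to 49.7), against 45.1% of all 33490 sites with at least 30 reads and 47.4% of all 167387 sites. High levels, at or over 80%, were listed for 1305 sites (27.6%, 26.4 to 28.9), against 38.8% of the sites with at least 30 reads and 37.4% of all sites. The middle, from 21 to 79%, held 1137 sites (24.1%, 22.9 to 25.3), against 16.1% and 15.2%. The ChIP-bisulfite mean was 39.7% with an SD of 40.3, compared with the RRBS mean of 50.5%. A lower mean in ChIP-bisulfite was not particular to these sites. The means were 46.9% and 56.5% over all sites with at least 30 reads, and 45.1% and 53.9% over all sites. Exactly 0 was listed for 1571 sites (33.3%) and exactly 100 for 766 (16.2%), while 474 sites (10.04%, 9.20 to 10.9) were at 40 to 60% in both assays. ChIP-bisulfite levels of 40 to 60% were listed for 7.97% of sites at 21 to 39% in RRBS with at least 30 reads. For those at 61 to 79% in RRBS the share was 8.56%. The middle held 20.3% and 21.6% of these groups.

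The files give no read number for single sites in ChIP-bisulfite. Over the authors' table of averages, 52843200 ChIP-bisulfite reads covered 3006227 positions, or 17.6 reads per position, and no peak averaged under 10. At 10 reads, a site with 5 methylated reads has an exact interval of 18.7 to 81.3%. The number of independent molecules behind these reads is not known, and its part in the levels of 0 and 100 was not tested. The assays also differed in how the DNA was cut and in the processing tools named. An effect of H3K4me1 binding and an offset between the protocols cannot be told apart.

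**Figure D1:**
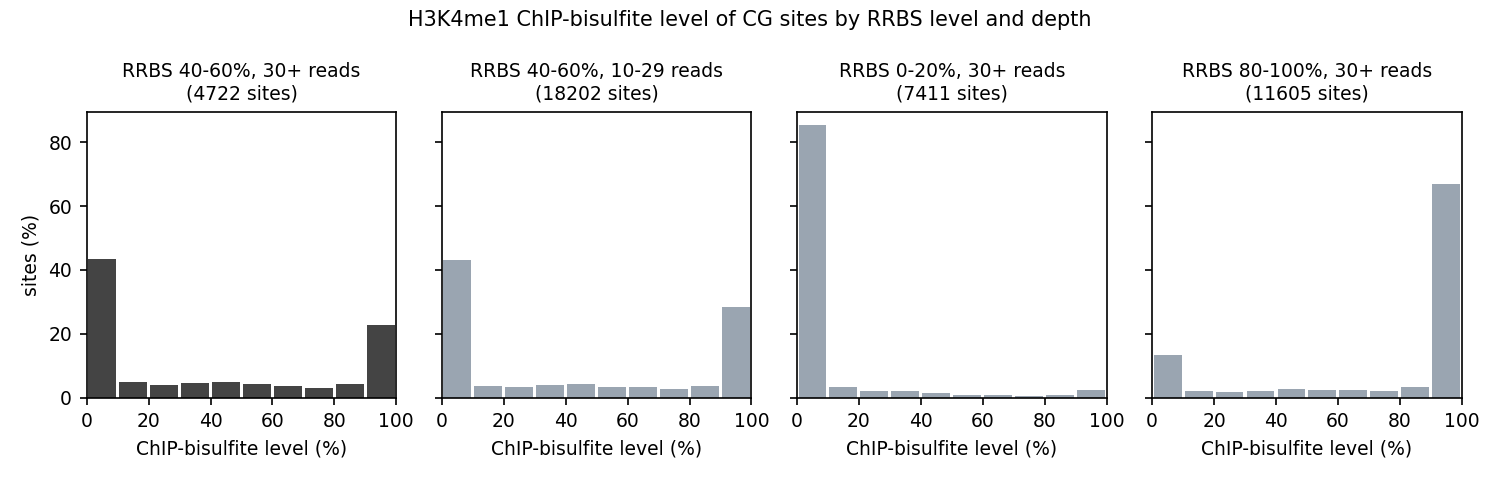
Percent of CG sites (vertical axis) by ChIP-bisulfite level in bins of 10 percentage points (horizontal axis) for sites at 40 to 60% in RRBS with at least 30 reads, the same with 10 to 29 reads, and sites with at least 30 reads at 0 to 20% and at 80 to 100%. The bin from 0 to 10% held 43.3% and the bin from 91 to 100% held 22.6% of the 4722 deep intermediate sites.

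ChIP-bisulfite placed the deep intermediate sites between deep low and deep high sites, which had at least 30 reads and an RRBS level of 0 to 20% or 80 to 100%. The mean level was 39.7% at deep intermediate and 7.60% at deep low sites, a difference of 32.1 points (SE 0.900 over scaffolds, 95% interval 30.3 to 33.8) in a linear fit with errors clustered by scaffold. Against deep high sites, at 77.3%, the difference was -37.6 points (SE 0.824, -39.2 to -36.0). The middle class held 24.1% of deep intermediate sites, 8.04% of deep low sites and 13.7% of deep high sites. Among sites with at least 30 reads it held 20.3% at 21 to 39% in RRBS and 21.6% at 61 to 79%. A larger middle class than at deep low and deep high sites was thus not particular to RRBS levels of 40 to 60%. These shares were not tested against each other. Within the deep intermediate sites the ChIP-bisulfite level followed the RRBS level over its 20 points. It averaged 33.4% at sites with an RRBS level of 40 to 44%, 36.5% at 45 to 49%, 41.2% at 50 to 54% and 44.8% at 55 to 60%, while the share in the middle class stayed between 23.1% and 25.98%. Spearman's rho between both levels was 0.112 over the 4722 sites, which share libraries and in part H3K4me1 peaks.

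Greater RRBS depth went with a larger middle class, though not right at the limit of 30 reads. Deep intermediate sites were in the middle in 24.1% of cases and shallow intermediate sites, with 10 to 29 reads, in 20.6% of 18202 cases. The difference was 3.45 points (SE 0.824, 95% interval 1.84 to 5.06, clustered linear fit, n = 273 scaffolds, adjusted p = 6.2e-05 over 11 tests). In order of reads the middle share was 22.2% at 30 to 39 reads, 24.4% at 40 to 59, 25.3% at 60 to 99, 27.5% from 100 to under 200 and 63.3% at 200 reads and more. Over the same steps the high share was 29.9%, 27.3%, 25.9%, 15.5% and 1.67%. The last step rests on 60 sites in 12 H3K4me1 peaks, of which 30 lay on scaffold_927. Without this scaffold 25 of 30 sites with 200 reads and more (83.3%) were in the middle, and 26.9% of 119 sites from 100 to under 200 reads (95% interval 19.2 to 35.8). At the limit the middle share was 20.1% with 30 to 31 reads (16.9 to 23.6) and 22.4% with 28 to 29 reads (19.2 to 25.9).

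**Figure D2:**
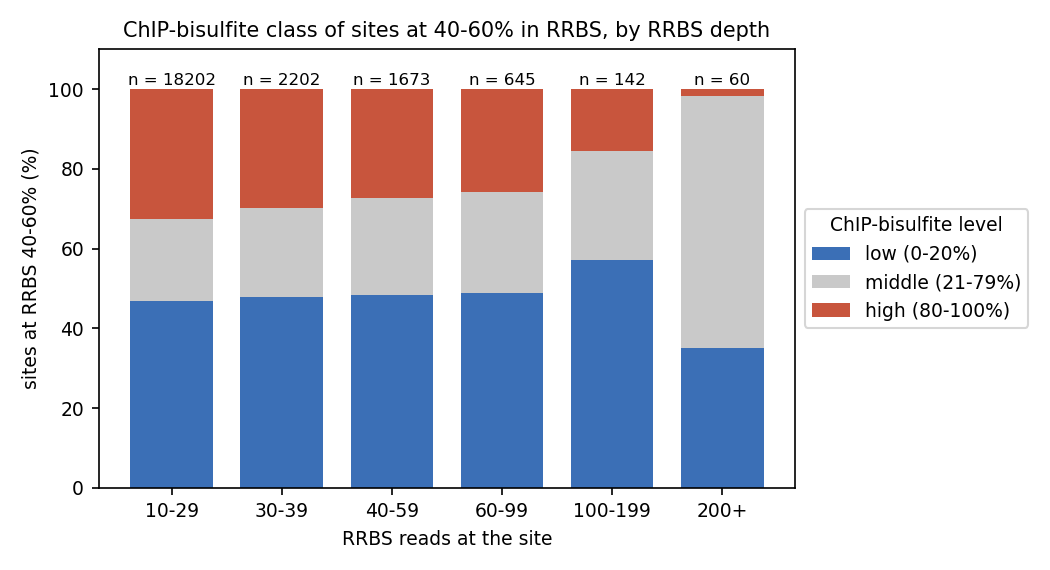
Percent of CG sites at 40 to 60% in RRBS (vertical axis) that were low, middle or high in ChIP-bisulfite (stacked colours), by the number of RRBS reads at the site (horizontal axis, numbers of sites above the bars). The middle share was 20.6% at 10 to 29 reads and 63.3% at 200 reads and more, and the high share was 1.67% in the last bar.

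The next comparison asked whether neighbouring sites had a like level. A neighbour was the nearest site with at least 30 reads at up to 50 bases, which 2051 of the 4722 deep intermediate sites (43.4%) had. Neighbours this close can lie on the same reads, and neighbours 1 base apart are the C positions of both strands of a CG. Most neighbours were intermediate as well. In RRBS 79.2% of them (95% interval 77.4 to 80.9) were between 21 and 79%. The share was 67.4% for the neighbours of sites at 21 to 39% and 62.4% for those of sites at 61 to 79%, against 15.004% at deep low and 26.5% at deep high sites. These shares were not tested against each other. Neighbours at 40 to 60% made up 36.6% (34.5 to 38.7), those at or under 20% made up 7.26% and those at or over 80% made up 13.6%. The median level of the neighbours was 53%, with quartiles of 38 and 70%. Of the 417 deep intermediate sites with a neighbour on each side, 267 (64.0%) had both at 21 to 79%, compared with 43.6% of flanked sites at 21 to 39% and 47.6% at 61 to 79%. A low neighbour on one side and a high one on the other flanked 3 (0.719%), against 0.366 to 0.952% in the other groups of deep sites.

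**Figure D3:**
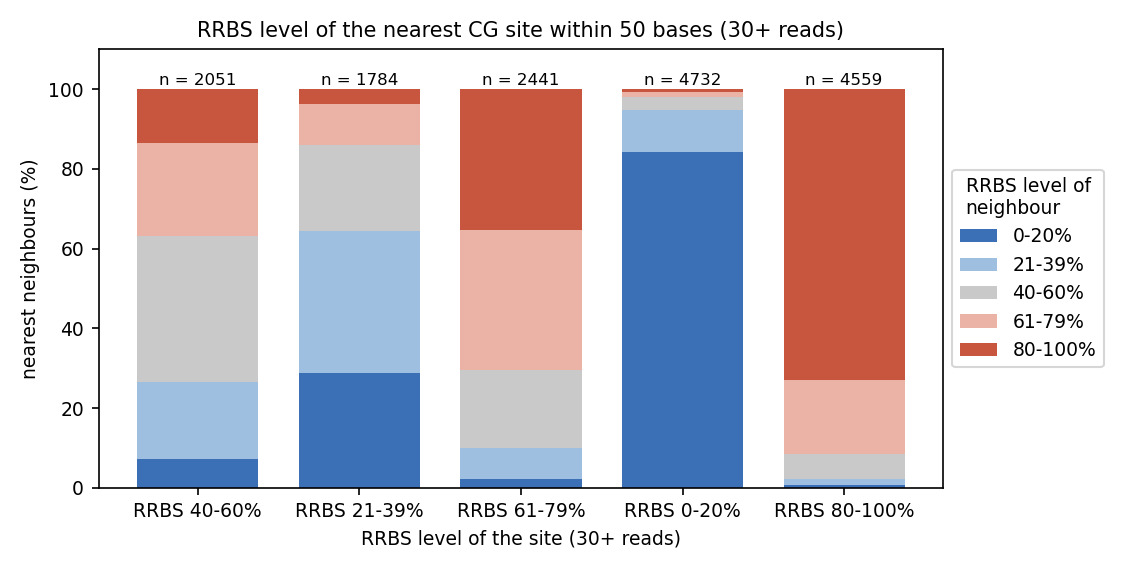
Percent of nearest neighbours (vertical axis) in 5 ranges of RRBS level (stacked colours), for sites grouped by their own RRBS level (horizontal axis, numbers of sites with a neighbour above the bars). All sites and neighbours had at least 30 reads and lay at most 50 bases apart, and 36.6% of the neighbours of sites at 40 to 60% were in the same range.

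Differences between neighbours were also counted, as a description, since the RRBS level of the deep intermediate site was fixed by selection. Fisher's exact test on methylated and unmethylated reads, adjusted by Benjamini-Hochberg over all 9649 pairs of consecutive sites, found a difference in 648 of 2031 pairs with a deep intermediate site (31.9%, 95% interval 29.9 to 34.0). Over all pairs the share was 20.8%, and among 437 pairs of 2 deep intermediate sites, which the selection holds within 20 points of each other, it was 1.14%. Pairs with a site at 21 to 39% or 61 to 79% differed in 30.4% of 4064 cases, a near share, but some of these pairs also held a deep intermediate site. Pairs without a deep intermediate site, at any RRBS level, differed in 17.8% of 7618 cases. The median difference in level was 19 points in pairs with a deep intermediate site and 8 points over all pairs. By distance the called share was 25.6% of 485 pairs at 1 base, against 21.3% of all pairs at 1 base. It was 29.5% of 699 pairs at 2 to 10 bases, against 18.1% of all such pairs, and 37.5% of 847 pairs at 11 to 50 bases, against 23.1%. Reads that share a molecule or a PCR copy were not told apart.

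In ChIP-bisulfite the class of a deep intermediate site recurred at its neighbour in 1178 of 2051 cases (57.4%). The share was 63.9% at sites of 21 to 39% in RRBS, 59.4% at 61 to 79%, 84.7% at deep low and 69.1% at deep high sites. The neighbour of a low site was low in 66.3% of 1018 cases and high in 16.2%. The neighbour of a high site was high in 53.9% of 508 cases and low in 25.2%. The neighbour of a middle site was in the middle in 43.6% of 525 cases. These shares describe neighbours on shared fragments and carry no test. Among 183 H3K4me1 peaks with at least 3 deep intermediate sites, 32 had all of them low, 8 had all high and 8 had all in the middle. At least 1 low and 1 high site lay in 75 of these peaks, at any distance from each other.

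Deep intermediate sites lay near transcription start sites less often than deep low sites and more often than deep high sites. Within 1000 bases of the nearest listed start site were 474 of them (10.04%), compared with 34.8% of deep low sites and 5.997% of deep high sites, and with 14.3% of all sites with at least 30 reads. With at least 30 reads the share was 16.1% at 21 to 39% in RRBS and 7.14% at 61 to 79%. At shallow intermediate sites it was 8.08%. The difference was -24.7 points against deep low sites (SE 2.58, 95% interval -29.8 to -19.7, clustered linear fit, n = 271 scaffolds, adjusted p = 2.9e-21) and 4.04 points against deep high sites (SE 1.09, 1.91 to 6.17, adjusted p = 3.7e-04). The median distance from a start site was 9872 bases for deep intermediate sites, 2486 bases for deep low sites and 13780 bases for deep high sites. More than 10000 and up to 100000 bases downstream lay 1697 deep intermediate sites (35.9%), and a further 642 (13.6%) lay beyond it. Exons and introns were not annotated in these tables.

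The ChIP-bisulfite class of deep intermediate sites varied by few points with this distance. The low share was 50% within 1000 bases (95% interval 45.4 to 54.6), 45.01% from there to 10000 bases downstream (41.8 to 48.2), 50.3% from 10000 to 100000 bases (47.9 to 52.7) and 51.1% beyond (47.1 to 55.02). More than 1000 bases upstream it was 45.3% (42.1 to 48.6). The high share ranged from 23.0% within 1000 bases to 28.6% between 10000 and 100000 bases downstream. The middle share was 27.0% within 1000 bases, 27.7% from there to 10000 bases and 21.03% beyond 100000 bases downstream. These differences were not tested.

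**Figure D4:**
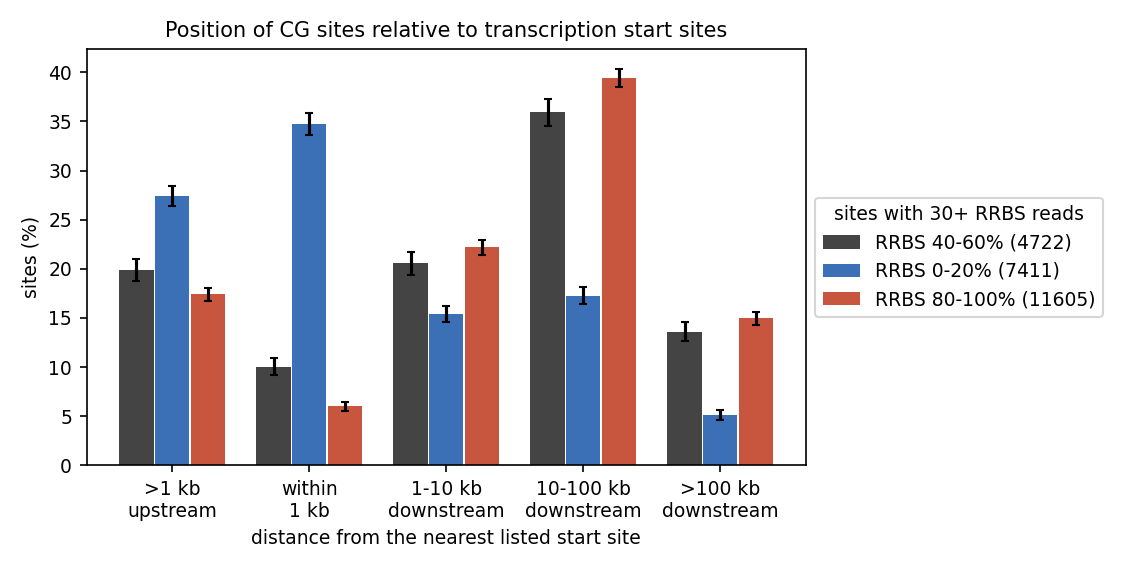
Percent of sites (vertical axis) in 5 ranges of distance from the nearest listed start site (horizontal axis) for deep intermediate, deep low and deep high sites, with exact 95% binomial intervals as error bars. Within 1000 bases lay 10.04% of the deep intermediate sites, 34.8% of the deep low and 5.997% of the deep high sites.

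Deep intermediate sites lay inside Pol II PS5 peaks less often than deep low sites and more often than deep high sites. Inside a Pol II PS5 peak lay 106 of 4722 (2.24%, 95% interval 1.84 to 2.71), compared with 9.57% of deep low sites, 1.03% of deep high sites and 3.65% of all sites with at least 30 reads. Over all 167387 sites the share was 2.22%, near that of the deep intermediate sites. With at least 30 reads it was 4.66% at 21 to 39% in RRBS and 1.92% at 61 to 79%. At shallow intermediate sites it was 0.896%. The difference was -7.32 points against deep low sites (SE 2.47, -12.2 to -2.48, clustered linear fit, n = 271 scaffolds, adjusted p = 0.0042) and 1.22 points against deep high sites (SE 0.573, 0.0957 to 2.34, adjusted p = 0.034). With closeness to a start site as a covariate the differences were -5.69 points (n = 271 scaffolds, adjusted p = 9.3e-04) and 0.952 points (adjusted p = 0.034). Scaffold_927 held 27 of the 106 sites, and without it the differences were -4.82 and 0.740 points. With 1 site per H3K4me1 peak in each group they were -3.22 and 0.395 points. Against deep high sites the call was lost with at least 50 reads, at 3.12 points, and with RRBS levels of 45 to 55%, at 0.907 points.

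Inside Pol II PS5 peaks the deep intermediate sites were seldom high in ChIP-bisulfite. The high class held 8 of 106 sites (7.55%, 3.31 to 14.3) inside and 28.1% of 4616 sites outside (26.8 to 29.4). The middle class held 44.3% inside (34.7 to 54.3) and 23.6% outside, and the low class 48.1% inside and 48.3% outside. The mean ChIP-bisulfite level was 29.2% inside (SD 29.8) and 39.9% outside (SD 40.4). Without scaffold_927 the 79 sites inside averaged 35.2%, with 50.6% of them in the middle and 10.1% high. The 106 sites lay in 47 H3K4me1 peaks, with 27 of them on scaffold_927 and 8 in a single peak on scaffold_815. The intervals count them as separate sites. The high share inside Pol II PS5 peaks was not computed for other groups of deep sites. Whether a low value is particular to deep intermediate sites was therefore not tested. Of the 106 sites, 95 lay farther than 1000 bases from a start site. The 10 deep intermediate sites with the most reads, 1264 to 6764, all lay in Pol II PS5 peaks, so depth moves with this group and its part was not tested.

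Deep intermediate sites lay in wider H3K4me1 peaks than deep high sites. Counted over sites, the median width was 7427 bases (quartiles 4160 and 15581), compared with 8291 bases at sites of 21 to 39%, 7101 bases at deep low, 6090 bases at deep high and 6771 bases at all sites with at least 30 reads. On the log2 scale width was greater by 0.28 than at deep high sites (SE 0.030, 95% interval 0.22 to 0.34, clustered linear fit, n = 271 scaffolds, adjusted p = 1.0e-20). Against deep low sites it was greater by 0.14 (SE 0.049, 0.040 to 0.23, n = 271 scaffolds, adjusted p = 0.0067), a call that was lost with at least 50 reads, at -0.0030, and with 1 site per peak in each group, at 0.036. The authors' H3K4me1 scores lie on a low scale, up to 14.8, and a high scale, from 42 upwards. On the high scale were the peaks of 4550 deep intermediate sites (96.4%), with a median score of 63, near the 95.03% and the median of 63 over all sites with at least 30 reads. At deep low sites the share was 99.3% with a median score of 66.5, and at deep high sites 91.2% with a median of 61.

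Within the deep intermediate sites the score was hardly related to the ChIP-bisulfite level, with a Spearman's rho of -0.00833 for its percentile within the scale. In 4 groups of near equal size by score on the high scale, from lowest to highest, the mean level was 41.1%, 39.2%, 38.8% and 38.4%. The middle share was 20.7%, 24.5%, 24.5% and 28.5% over the same groups. The 172 sites in peaks on the low scale were in the middle in 12.8% of cases (95% interval 8.19 to 18.7) and high in 40.7% (33.3 to 48.4). In 4 such groups by peak width the middle share was 19.2% in the narrowest, up to 4160 bases, and 30.4% in the widest, from 15584 bases. ChIP-bisulfite reads per site were not given, and their part in these shares was not tested.

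Deep intermediate sites were mostly spread 1 to a peak, as like groups of sites were. A single one lay in 2972 of the 3628 H3K4me1 peaks, and 473 peaks held 2. Peaks with at least 2 held 1750 of the 4722 sites. With at least 30 reads, 6040 sites at 61 to 79% in RRBS lay in 4749 peaks, and 3712 sites at 21 to 39% lay in 2764. The 4 peaks with the most deep intermediate sites held 155 of them together. These peaks also held many other sites with at least 30 reads. Over all scaffolds, 4722 of 33490 such sites were deep intermediate sites. On scaffold_927, from 40 to 10214, a peak with a score of 2831 held 63 among 747 such sites, which had a median RRBS level of 17%. The 63 had a median of 140 reads. Their ChIP-bisulfite levels ran from 0 to 60% with a median of 14%, and 38 were low and none was high. The next peak on this scaffold, from 10897 to 27858, held 29 with a ChIP-bisulfite median of 4%, of which 16 lay in Pol II PS5 peaks. It had 178 sites with at least 30 reads, at a median RRBS level of 22%. On scaffold_537, from 187 to 13940, a peak held 32 with a ChIP-bisulfite median of 6.5% and a range of 0 to 93%. It had 243 sites with at least 30 reads, at a median RRBS level of 20%. These scaffolds are short, with the last RRBS position at 34226 on scaffold_927 and at 117234 on scaffold_537. Scaffold_927 had 53 deep intermediate sites with at least 100 reads, more than any other scaffold.

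The peak on scaffold_13 from 48344145 to 48360429 differed from these in ChIP-bisulfite. Its 289 sites with at least 30 reads had a median RRBS level of 74%. It held 31 deep intermediate sites at 150 to 6694 bases from start sites, with a median of 148 reads. Their ChIP-bisulfite levels had a median of 42%, and 25 of the 31 were in the middle, 4 were low and 2 were high. On scaffold_815, from 175 to 5880, all 8 sites were in the middle, at 33 to 66%, and all 8 lay in Pol II PS5 peaks. The wide domains on scaffold_53 (1214148 to 1434317), scaffold_2 (69731364 to 69931905) and scaffold_19 (33664716 to 33777547) held 14, 13 and 9 sites that ran from 0 to 100% in ChIP-bisulfite within each domain. On scaffold_15 (20418167 to 20489921) 8 sites ran from 4 to 55%, and on scaffold_6 (3010864 to 3019721) 7 sites within 287 bases ran from 0 to 67%.

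**Figure D5:**
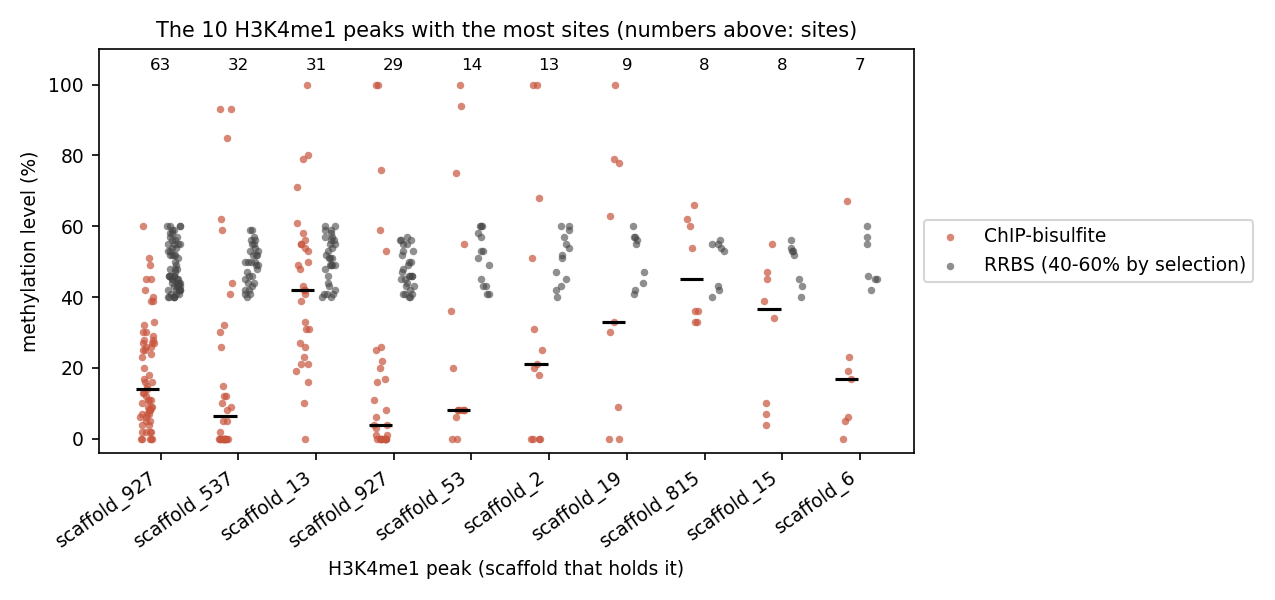
Methylation level in percent (vertical axis) of each deep intermediate site in ChIP-bisulfite (left, with a line at the median) and in RRBS (right) for the 10 H3K4me1 peaks with the most such sites (horizontal axis, named by scaffold). The ChIP-bisulfite medians range from 4% in the second peak on scaffold_927 to 45% on scaffold_815, while RRBS is at 40 to 60% by selection.

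Tight groups of deep intermediate sites, with at least 5 sites at most 200 bases from one to the next, were looked for after the values had been seen. There were 12 such groups with 125 sites, of which 9 lay on scaffold_927 and scaffold_537. The group with the highest share of deep intermediate sites lay on scaffold_25, from 25098272 to 25098438, inside the H3K4me1 peak from 25096581 to 25099749 and 12232 to 12398 bases downstream of the start site of ENSCPOG00000006851. Of the 8 sites with at least 30 reads in these 166 bases, 7 were deep intermediate sites, and the other was at 38% in RRBS with 34 reads. A further 2 sites there had 14 reads each and were at 21%. All 10 sites measured there were at 0% in ChIP-bisulfite. In RRBS the 7 sites were at 43% (61 reads), 58% (59 reads), 49% (63 reads), 55% (38 reads at each of 3 sites) and 56% (39 reads). They span more than a single read of 100 bases, and the 3 sites with equal reads and equal levels are not independent measurements.

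A group of 14 deep intermediate sites on scaffold_13, from 48356649 to 48356800, kept an intermediate level in both assays. Its ChIP-bisulfite levels ran from 16 to 80% with a median of 51%, and 12 of the 14 were in the middle. Of the 31 sites with at least 30 reads in this stretch, 29 were at 21 to 79% in RRBS, and the reads at the 14 sites had a median of 293. On scaffold_927, from 12734 to 12868, the pattern was another one. There 16 deep intermediate sites, all in Pol II PS5 peaks, had a ChIP-bisulfite median of 2%, with 15 of the 16 low, and a mean RRBS level of 48.2% over a median of 177 reads.

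Of the 10 deepest single sites, 8 were in the middle in ChIP-bisulfite, while their RRBS levels were at 40 to 60% by selection. At position 32313234 of scaffold_0 the level was 72% in ChIP-bisulfite and 57% in RRBS over 6764 reads (exact 95% interval 55.8 to 58.2). On scaffold_1020 the sites at 27942, 28360 and 28361 had ChIP-bisulfite levels of 58%, 47% and 56% and RRBS levels of 59%, 60% and 59%, with 1770 to 2696 reads. On scaffold_10 the sites at 4661814 and 4662104 had ChIP-bisulfite levels of 56% and 50% and RRBS levels of 41% and 47%. The sites at 20000420, 20000475 and 20000485 of scaffold_25 lay within 65 bases and were at 22%, 36% and 82% in ChIP-bisulfite, with RRBS levels of 43%, 46% and 50%. At 6231 of scaffold_927 the level was 7% in ChIP-bisulfite and 40% in RRBS over 1585 reads.

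Sites at an end of the scale in ChIP-bisulfite were also found at high RRBS depth. A ChIP-bisulfite level of 0 was listed at 14818 of scaffold_927 with an RRBS level of 56% over 423 reads (51.2 to 60.8), and at 14811 with 43% over 422 reads. Away from this scaffold it was listed at 28566915 of scaffold_5, 286 bases downstream of a start site, with 41% over 249 reads (34.8 to 47.4). At 14532595 of scaffold_0 it stood beside an RRBS level of 52% over 196 reads. A level of 100 was listed at 2827992 of scaffold_104, at -528 bases from a start site, with 46% over 185 reads (38.6 to 53.4). The other 4 sites at 100% with the most reads, on scaffold_13 (48352849 and 9098731), scaffold_31 (18171858) and scaffold_28 (13832818), had 107 to 148 reads and RRBS levels of 42 to 60%.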

How the data were processed

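CG levels of RRBS and ChIP-bisulfite were deposited as whole percent for all animals together, per the file headers. The authors' RRBS file gives counts of reads per C position, at least 10 each. Reads per H3K4me1 peak were deposited as counts for ChIP-bisulfite and treated as estimated counts for RRBS, since some deposited RRBS values are not whole. H3K4me1 and Pol II PS5 peaks carry the authors' score, whose scale is not explained in the sources used here. The submitters' processing notes name BSMAP 2.74 and methylKit for RRBS, Bismark 0.12.5, methylKit, MACS2 and HOMER for ChIP-bisulfite, and Bowtie2 2.2.3, MACS2 and HOMER 4.6 for ChIP-seq, with SAMtools 1.1 throughout, giving no role or order. The genome build is not given in the sources used here, and positions are printed as in the files. No sequence could be read from a genome of that build.

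Sites repeated over transcripts were counted once, with the nearest start site. Shares carry exact Clopper-Pearson intervals. Groups of sites were compared in linear fits over all sites of the depth class with standard errors clustered by scaffold (statsmodels 0.14.6), with p-values adjusted by Benjamini-Hochberg over 11 tests. They describe the spread over scaffolds of 1 pool, not animals. Neighbours were compared with Fisher's exact test (scipy 1.17.1) on level times reads, rounded. Both procedures were tested on simulated data. RRBS depth summed to 131062338 reads over 5053261 positions. The table of averages gave RRBS averages, counts of C positions and ChIP-bisulfite reads per position. Its ChIP-bisulfite levels were not used here.

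Named regions are the 10 H3K4me1 peaks with the most sites, the 10 deepest sites and the 5 deepest at 0, 100 and 40 to 60% in ChIP-bisulfite, and the 10 deepest in Pol II PS5 peaks, which were the 10 deepest sites. Gene lists by symbol were not applied, because 0 gene IDs of the files matched the reference table. The sites, lists and rules were chosen with earlier results of these data known. Alternatives changed the read minimum, the RRBS range, the class limits, the distances and the counting of sites. Results without scaffold_927, without the 4 leading peaks and with each H3K4me1 peak's score counted once were added after seeing the data.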

Additional observations from a re-analysis of the deposited data

How the results depend on the processing

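No paired analysis was possible because all deposited values pool the animals, so no replicate could be left out or blocked either. With at least 50 reads the middle and high shares were 26.3% and 25.3%, the width difference from deep low sites turned to -0.0030 on the log2 scale, and the Pol II difference from deep high sites, at 3.12 points, no longer passed. With at least 100 reads the low, middle and high shares were 50.5%, 38.1% and 11.4%, the width differences were -0.27 from deep low and 0.20 from deep high sites, and the Pol II difference from deep high sites was 9.89 points, none of these 3 passing. With RRBS levels of 45 to 55% the width difference from deep low sites, 0.084, and the Pol II difference from deep high sites, 0.907 points, did not pass. With 1 site per H3K4me1 peak in each group the middle and high shares were 22.4% and 29.1%, and the width difference from deep low sites was 0.036 and did not pass. Class limits of 30 and 70% gave shares of 52.3%, 17.05% and 30.7%, and limits that leave 40 to 60% as the middle gave 56.0%, 10.04% and 34.0%. Within 500 bases of a start site the difference from deep high sites, 1.53 points, did not pass. A higher read minimum or a narrower range also leaves fewer sites. The cause was not tested in any of these cases. The differences in ChIP-bisulfite level from deep low and deep high sites, and the start site and Pol II differences from deep low sites, kept direction and call under every alternative run. The called share of neighbour pairs ranged from 21.7% at an adjusted p of 0.01 to 44.98% with at least 50 reads. The median H3K4me1 score percentile within its scale was 70.1, against 68.6 for all sites with at least 30 reads, and 85.6 with all scores ranked together.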

Other observations

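The authors' average RRBS levels around deep intermediate sites were between those around deep low and deep high sites. They are listed for 99978 intervals, which need not be the scored H3K4me1 peaks used above. The peak on scaffold_13 from 48344145 to 48360429 held intervals at 54.6% and at 84.1%. The average of the interval that held the site had a median of 59.1% (quartiles 46.7 and 69.1), compared with 20.6% at 7403 deep low sites and 78.4% at deep high sites. The median was 46.5% at sites of 21 to 39% and 68.9% at 61 to 79%. Over 33482 sites with at least 30 reads it was 62.2%, near that of deep intermediate sites, with quartiles of 38.7 and 77.1%. The density of C positions was likewise between, with a median of 28.4 per 1000 bases of interval, against 51.3 at deep low and 26.1 at deep high sites. Over all sites with at least 30 reads it was 31.1. The site's own RRBS reads enter these averages, so they are a description. In intervals that averaged under 40% in RRBS the ChIP-bisulfite level of the deep intermediate sites was 34.9% (SD 38.04, 787 sites). In intervals over 60% it was 42.7% (SD 41.8, 2265 sites). The density of C positions showed no such order, with means of 40.2%, 40.5%, 40.2% and 37.8% in 4 groups of near equal size from the lowest to the highest density.

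Transcripts with a Pol II PS5 score were listed for 3287 deep intermediate sites (69.6%, 95% interval 68.3 to 70.9), near the 68.1% of all sites with at least 30 reads, and against 64.9% of deep low and 68.9% of deep high sites. The ChIP-bisulfite level of deep intermediate sites was 39.7% (SD 40.2) with such a score and 39.6% (SD 40.5) without, and the low share was 48.3% in both. Where the nearest neighbour with at least 30 reads was low in RRBS, deep intermediate sites averaged 29.5% in ChIP-bisulfite (SD 36.7, 149 sites), and where it was high they averaged 49.9% (SD 42.4, 278 sites). These values carry no test.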
